A study of Homo sapiens with 3 samples.

Results

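Matrix metalloproteinases and their inhibitors were followed through a gene expression experiment on 3 RNA sequencing libraries. The set comprises 7 matrix metalloproteinase genes (MMP1, MMP2, MMP3, MMP9, MMP10, MMP14 and MMP15) and 3 genes for tissue inhibitors of metalloproteinases (TIMP1, TIMP2 and TIMP3), found by gene name among the 58735 genes of the deposited table. All 10 were present in it. The label of every culture is HCT116, a line of human colorectal carcinoma cells, grown in DMEM with fetal bovine serum. One library was an empty vector control, one came from cells overexpressing wild-type ZEB1, and one from cells overexpressing ZEB1 K80R, in which a lysine of the protein is replaced by an arginine. All 3 carry the treatment label "control". It is not said whether each line was a clone or a pool. The series title asks how ZEB1 K80R bears on NF-κB signalling, on epithelial-mesenchymal transition and on inflammatory gene expression. Each group had 1 library, so the spread between cultures is unknown, the conditions could not be tested and no p-value is given.

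Matrix metalloproteinases are zinc-dependent endopeptidases that cut collagens, laminins, fibronectin and other proteins of the extracellular matrix, as well as cell surface proteins and growth factors. They are made as inactive proenzymes and are switched on when the propeptide is removed, by furin-like convertases inside the cell or by plasmin and other MMPs outside it. TIMPs bind the active site of the enzymes and block it, and TIMP2 also serves as the bridge by which membrane-bound MMP14 captures and activates proMMP2. ZEB1 is a zinc-finger repressor of epithelial genes, and promoters of several secreted MMPs are known to be controlled by AP-1, ETS and NF-κB factors.

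Values are FPKM, read counts divided by the length of the gene and by a size factor of the library. They can be compared between genes because they are per length. How the size factor was set is not stated. The FPKM worth of a read differed more between libraries than the read sums did. Ratios between libraries therefore carry this factor and are not ratios per summed read. The deposited values kept whole reads, which summed to between 13479517 and 14764535 per library. Brackets hold the exact 95% counting interval for a ratio of FPKM. They cover counting error only, not the spread between cultures, and would be too narrow where reads were copied from the same molecule. A difference of log2(FPKM + 1) was used for counts over many genes, and a gene was counted as higher or lower when the ratio of FPKM + 1 was at least 1.5. This was done for the 12605 genes with a mean of at least 1 FPKM over the 3 libraries.

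Some features of the libraries bear on all values below. Of 12 markers of colon epithelium, 10 had 0 reads in every library, EPCAM, CDH1 and CDX2 among them, and the highest value was 0.0851 FPKM, so the colon epithelial label was not borne out by these genes. Mitochondrial genes took 1.29% of the reads of the empty vector library, 7.77% of the wild-type ZEB1 library and 9.75% of the ZEB1 K80R library. The empty vector library had 350 genes with exactly 1 read, against 2705 and 2902 in the others. Their part in the differences from empty vector was not tested. Rescaling to a common sum of FPKM multiplied the ratios to empty vector by 0.728 for wild-type ZEB1 and 0.737 for ZEB1 K80R. A ratio to empty vector between 1 and 1.37 for wild type, or between 1 and 1.36 for K80R, therefore changes direction at this scaling. When mitochondrial genes were left out of the common sum, the factors were 0.948 and 1.06. On that scale 9 of the 10 members lay above 1 against empty vector in both comparisons. K80R relative to wild type was multiplied by 1.01 at the common sum and by 1.11 without mitochondrial genes. ZEB1 itself stood at 5.66 FPKM in empty vector, 9.83 in wild-type ZEB1 and 10.3 in ZEB1 K80R. Of 20 markers of fibroblasts, macrophages, neutrophils, endothelium and mast cells, 9 had 0 reads in every library, and their summed level was 1.51, 4.33 and 3.58 FPKM in the same order. PDGFRB, a receptor of fibroblasts and pericytes, and the macrophage marker CSF1R made up most of this. PDGFRB stood at 0.573, 2.19 and 1.54 FPKM and CSF1R at 0.807, 1.2 and 1.34. Their part in the results was not tested. In such bulk samples fewer cells with a transcript and less of it per cell cannot be told apart.

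Promoter windows from RefSeq (GRCh38.p14) were matched by symbol for 5 of the 10 genes, MMP10, MMP14, MMP15, TIMP1 and TIMP3. Of these, 3 are shown because they span the range of levels: MMP14 was the most abundant member, TIMP3 lay in the middle and MMP10 was close to absent. Each is given 5′ to 3′ on the strand of its gene, ending before the annotated gene, with motif matches in capitals. They lie at chr14:22836335-22836556 (plus strand), chr22:32801455-32801700 (plus strand) and chr11:102780629-102780878 (minus strand).
MMP14: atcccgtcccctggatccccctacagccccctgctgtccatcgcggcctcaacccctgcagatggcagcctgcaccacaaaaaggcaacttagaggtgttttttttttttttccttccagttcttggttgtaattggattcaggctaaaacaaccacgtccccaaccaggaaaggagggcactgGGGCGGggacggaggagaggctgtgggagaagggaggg
TIMP3: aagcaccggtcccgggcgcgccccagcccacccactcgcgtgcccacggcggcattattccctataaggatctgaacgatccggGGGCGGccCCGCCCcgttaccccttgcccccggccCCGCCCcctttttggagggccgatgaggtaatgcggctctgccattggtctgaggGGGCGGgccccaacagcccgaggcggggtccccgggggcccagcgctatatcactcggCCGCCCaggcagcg
MMP10: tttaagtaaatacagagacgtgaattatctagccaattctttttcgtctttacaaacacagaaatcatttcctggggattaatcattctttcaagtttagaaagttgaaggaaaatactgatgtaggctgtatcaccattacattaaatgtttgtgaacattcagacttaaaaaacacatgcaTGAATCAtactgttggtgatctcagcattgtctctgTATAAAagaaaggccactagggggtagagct
The motifs searched in the 250 bases before the RefSeq start were the AP-1 site TGANTCA, the E-box CAGGTG to which ZEB1 is known to bind, the GC box GGGCGG and the NF-κB-like site GGGNNTTCC, on both strands, and the TATA box TATAAA as written. An AP-1 match stood 67 to 61 bases before the start of MMP10 and a TATA box 31 to 26 bases before it. The window of MMP14 held 1 GC box, 66 to 61 bases before the start, and that of TIMP3 held 5. In the windows not shown, TIMP1 had 2 GC boxes, and MMP15 had 5 GC boxes and 2 E-boxes, one of which overlaps a GC box by 1 base. Both E-boxes and most GC boxes of MMP15, and the nearer GC box of TIMP1, lie inside the gene as annotated. Over all 35116 windows of this length the AP-1 letters occurred in 6.57%, the E-box in 17.5%, the GC box in 42.6%, the NF-κB-like site in 5.78% and the TATA box in 6.8%. The NF-κB-like letters searched were not found in the 5 windows. Other spellings or lengths of the NF-κB site were not searched, so this does not show that such sites are absent. A match is a run of letters, not a bound site.

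The members covered a wide range of levels, and MMP14 dominated them. MMP14, the membrane-anchored collagenase MT1-MMP (ENSG00000157227; GRCh38, chromosome 14, 22836557 to 22849027, plus strand), stood at 559.4 FPKM in empty vector, 974.8 in wild-type ZEB1 and 712.3 in ZEB1 K80R. This placed it 25th, 21st and 21st among protein-coding genes by level. It held 92.9%, 90.4% and 91.8% of the summed FPKM of the 7 MMP members. TIMP2 and TIMP1 followed, then MMP2, in every library. TIMP3, MMP1, MMP9, MMP3 and MMP15 lay between 2.13 and 29.7 FPKM. The order of these 5 differed between libraries, since MMP9 ranked 9th of the 10 members in empty vector, 5th in wild-type ZEB1 and 8th in ZEB1 K80R. MMP10 was last in all 3, with 10, 1 and 0 reads, and was the only member that did not reach a mean of 1 FPKM. Neighbours in the order whose counting interval of the ratio includes 1 were MMP15 and MMP9 in empty vector, at 1.1 (0.834 to 1.45), TIMP3 and MMP1 in wild-type ZEB1, at 1.11 (0.998 to 1.23), and MMP3 and MMP9 in ZEB1 K80R, at 1.09 (0.864 to 1.37). Without replicates such an order holds for these libraries only.

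**Figure D1:**
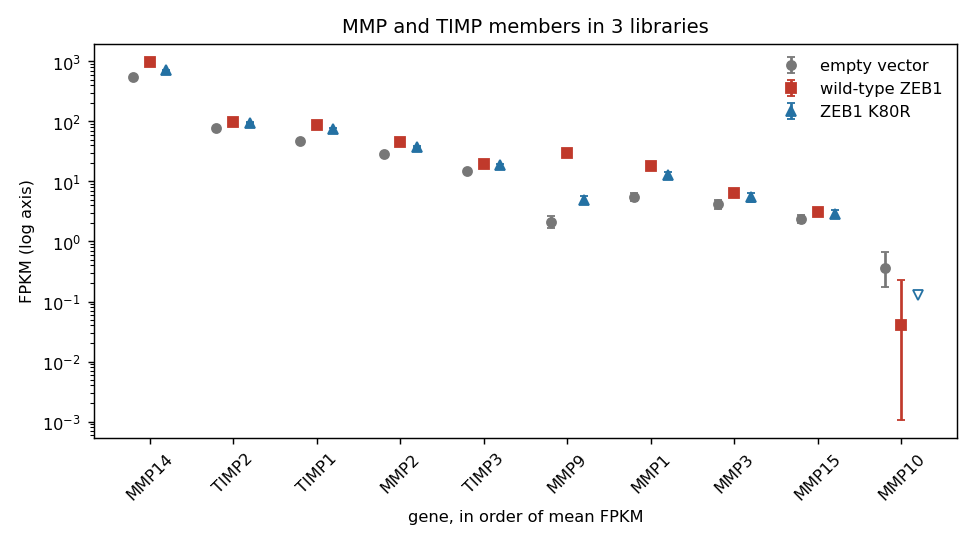
FPKM of the 10 members on a log axis in the empty vector (circles), wild-type ZEB1 (squares) and ZEB1 K80R (triangles) libraries, 1 library each, with exact 95% Poisson counting intervals. The open downward triangle marks the level that 3 reads would give for MMP10 in ZEB1 K80R, where it had 0 reads. MMP14 lies above all others, from 559.4 to 974.8 FPKM, and MMP9 is the member whose libraries lie farthest apart among those above 1 FPKM.

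Among the secreted gelatinases, MMP9 differed most between libraries. MMP9, which cuts denatured collagen and type IV collagen (ENSG00000100985; chromosome 20, 46008908 to 46016561, plus strand), stood at 2.13 FPKM from 79 reads in empty vector, 29.7 from 958 reads in wild-type ZEB1 and 4.98 from 155 reads in ZEB1 K80R. The wild-type ZEB1 library was thus high and the other two were low, with ZEB1 K80R above empty vector. The ratio of wild type to empty vector was 14 (11.1 to 17.8), that of K80R to empty vector 2.34 (1.77 to 3.11) and that of K80R to wild type 0.168 (0.14 to 0.199). At a common sum these were 10.2, 1.72 and 0.17, so none changed direction. By level MMP9 was the 8817th protein-coding gene in empty vector, the 1347th in wild-type ZEB1 and the 6470th in ZEB1 K80R. Counting MMP9 itself, 16 of the 12605 genes had as large an excess in wild-type ZEB1 over empty vector, and 15 had as large a deficit in ZEB1 K80R against wild type.

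MMP9 is also a product of neutrophils and macrophages. Their markers PTPRC, CSF3R, FCGR3B, MPO and CD163 had 0 reads in all 3 libraries, and CD68 had 1 read in ZEB1 K80R alone. CD14 had 0, 5 and 4 reads, ITGAM had 0, 2 and 2, and CSF1R stood at 0.807, 1.2 and 1.34 FPKM. In its annotation MMP9 shares 430 exon bases with SLC12A5-AS1, an antisense gene with 0, 7 and 2 reads, and 11.1% of the 50-base words of its transcripts occur in another gene. No strand setting is stated, so reads of this stretch cannot be told apart.

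MMP2, the other gelatinase and the proenzyme that MMP14 activates (ENSG00000087245; chromosome 16, 55389700 to 55506691, plus strand), stood at 28.2 FPKM in empty vector, 45.9 in wild-type ZEB1 and 37.3 in ZEB1 K80R. Wild-type ZEB1 was the highest library and empty vector the lowest. Relative to empty vector it was at 1.63 (1.54 to 1.72) in wild type and 1.32 (1.25 to 1.4) in K80R. At a common sum these ratios were 1.18 and 0.975, and without mitochondrial genes in that sum 1.54 and 1.4. The direction of the second thus changed at the common sum of all genes only. MMP2 and MMP9 were 13.3-fold apart in empty vector, 1.54-fold in wild-type ZEB1 and 7.49-fold in ZEB1 K80R, with MMP2 the higher in each.

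Of the secreted collagenase and stromelysins, MMP1 and MMP3 were measured and MMP10 was near the limit. MMP1, the interstitial collagenase that opens the triple helix of fibrillar collagens (ENSG00000196611; chromosome 11, 102789920 to 102798160, minus strand), stood at 5.56 FPKM in empty vector, 17.9 in wild-type ZEB1 and 12.7 in ZEB1 K80R. Both ZEB1 libraries were above empty vector, and K80R was below wild type. The ratios were 3.22 (2.71 to 3.85) for wild type to empty vector, 2.28 (1.89 to 2.75) for K80R to empty vector and 0.706 (0.612 to 0.813) for K80R to wild type, and the first of them was 2.35 and the second 1.68 at a common sum. MMP3, stromelysin-1, which cuts proteoglycans and activates other proMMPs (ENSG00000149968; chromosome 11, 102835801 to 102843803, minus strand), stood at 4.15, 6.48 and 5.42 FPKM from 135, 183 and 148 reads. Its ratio of wild type to empty vector was 1.56 (1.24 to 1.96), that of K80R to empty vector was 1.31 (1.03 to 1.66) and 0.964 at a common sum, and that of K80R to wild type was 0.838 (0.67 to 1.05), an interval that includes 1.

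MMP10, stromelysin-2 (ENSG00000166670; chromosome 11, 102770503 to 102780628, minus strand), had an FPKM of 0.358 in empty vector, 0.0412 in wild-type ZEB1 and 0 in ZEB1 K80R. Here the empty vector library was the highest, unlike for the other 9 members. The ratio of wild type to empty vector was 0.115 (0.00265 to 0.809), and the counting interval of K80R to empty vector ran from 0 to 0.532. MMP10 and MMP3 are close paralogs, and 59 of the 1756 words of 50 bases in MMP10 transcripts also occur in MMP3. No source used here says how reads that match both genes were counted.

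MMP1, MMP3 and MMP10 lie in a run of 9 MMP genes on chromosome 11, from 102520508 to 102955734, all on the minus strand. Only MMP1 and MMP3, which neighbour each other there, reached a mean of 1 FPKM. On one side of them MMP10, MMP8, MMP27, MMP20 and MMP7 and on the other MMP12 and MMP13 had at most 10 reads in any library, and MMP12, MMP20 and MMP27 had 0 in all. The ratio of MMP1 to MMP3 within a library was 1.34 in empty vector, 2.77 in wild-type ZEB1 and 2.33 in ZEB1 K80R, so the neighbours did not keep a fixed proportion. The interval of the first, 1.06 to 1.69, did not overlap those of the others, 2.33 to 3.3 and 1.92 to 2.85.

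The membrane-type members were the abundant MMP14 and the low MMP15. For MMP14, whose levels are given above, wild-type ZEB1 was the highest library and empty vector the lowest. The ratio was 1.74 (1.72 to 1.76) for wild type to empty vector, 1.27 (1.26 to 1.29) for K80R to empty vector and 0.731 (0.722 to 0.74) for K80R to wild type. The narrow intervals come from its 39674 to 60033 reads and say nothing of other cultures. At a common sum the first ratio was 1.27 and the second 0.939, on the other side of 1. MMP15, the related membrane protease MT2-MMP (ENSG00000102996; chromosome 16, 58025566 to 58046901, plus strand), stood at 2.34 FPKM in empty vector, 3.07 in wild-type ZEB1 and 2.92 in ZEB1 K80R. Its ratios to empty vector were 1.31 (1.06 to 1.63) for wild type and 1.25 (1.0 to 1.56) for K80R, and both lay below 1 at a common sum, at 0.956 and 0.922.

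Of the inhibitors, TIMP1 differed more between libraries than TIMP2 and TIMP3. TIMP1, which inhibits most MMPs and binds proMMP9 (ENSG00000102265; chromosome X, 47582313 to 47586789, plus strand), stood at 46.6 FPKM in empty vector, 85.8 in wild-type ZEB1 and 74.4 in ZEB1 K80R. Both ZEB1 libraries were above empty vector, at ratios of 1.84 (1.71 to 1.99) for wild type and 1.6 (1.48 to 1.73) for K80R, which were 1.34 and 1.18 at a common sum. K80R against wild type was 0.868 (0.81 to 0.929).

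TIMP2, the partner of MMP14 and MMP2 (ENSG00000035862; chromosome 17, 78852977 to 78925387, minus strand), stood at 78.8, 98.3 and 94.9 FPKM. The ratios to empty vector were 1.25 (1.21 to 1.29) and 1.2 (1.17 to 1.24), and 0.908 and 0.888 at a common sum. TIMP3, the inhibitor that is bound to the matrix and also blocks ADAM proteases (ENSG00000100234; chromosome 22, 32801701 to 32863043, plus strand), stood at 14.8, 19.9 and 18.7 FPKM, with ratios to empty vector of 1.34 (1.23 to 1.45) and 1.26 (1.16 to 1.37), and 0.975 and 0.931 at a common sum. For both genes the direction against empty vector therefore changed at a common sum. It did not when mitochondrial genes were left out of that sum, at 1.18 and 1.27 for TIMP2 and 1.27 and 1.33 for TIMP3. The ZEB1 libraries were near each other, with K80R over wild type at 0.966 (0.935 to 0.998) for TIMP2 and 0.943 (0.87 to 1.02) for TIMP3. TIMP1 and TIMP3 lie within the neuronal genes SYN1 and SYN3 on the opposite strand, which had 0 reads in all 3 libraries and share no exon bases with them.

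**Figure D2:**
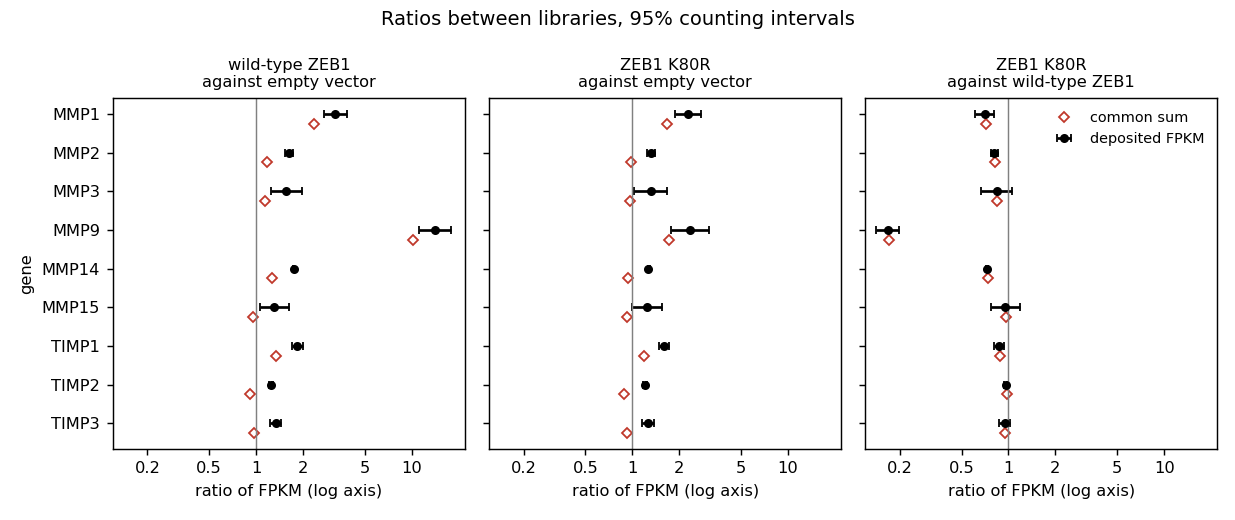
Ratio of FPKM between pairs of libraries, on a log axis, for the 9 members with a mean of at least 1 FPKM. Filled circles are deposited values with 95% counting intervals, open diamonds the same ratios at a common sum of FPKM, and the grey line marks a ratio of 1. MMP9 lies far to the right for wild-type ZEB1 against empty vector, at 14, and far to the left for ZEB1 K80R against wild type, at 0.168, while TIMP2, TIMP3 and MMP15 cross the line against empty vector at a common sum in both comparisons, and MMP2, MMP3 and MMP14 do so for ZEB1 K80R alone.

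The counts of members past the 1.5-fold limit were set beside those over all genes. For wild-type ZEB1 against empty vector 5 of the 9 members with a mean of at least 1 FPKM were higher, namely MMP1, MMP2, MMP9, MMP14 and TIMP1, and 0 were lower, where 14.2% of the 12605 genes were higher and 11.1% lower. The median difference of log2(FPKM + 1) was 0.68 over these 9 and 0.61 over all 10, against 0.01 over all genes tested. Each of the 9 had at least 2.13 FPKM in every library, so none had passed the filter through 1 library alone. At a common sum 2 of the 9 were above the limit, and the median over all genes was −0.36. The share of all genes above the limit at that scale is not given here, so the count of 2 cannot be set beside it.

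For ZEB1 K80R against empty vector, 3 of the 9 were higher (MMP1, MMP9 and TIMP1) and 0 lower, where 12.6% of genes were higher and 13% lower. The median was 0.35 against 0.00 over all genes, and −0.04 against −0.36 when both were taken at a common sum. Both comparisons use the same empty vector library, so they are not independent of each other.

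For ZEB1 K80R against wild type, MMP9 was the 1 member below the limit and 0 were above it, where 5.18% of genes were lower and 4.42% higher. All 9 members had a ratio below 1 on the deposited scale, and the counting interval excluded 1 for MMP1, MMP2, MMP9, MMP14, TIMP1 and TIMP2. The median was −0.22 against −0.02 over all genes. When mitochondrial genes were left out of a common sum, MMP15, TIMP2 and TIMP3 came to lie above 1, at 1.06, 1.08 and 1.05.

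**Figure D3:**
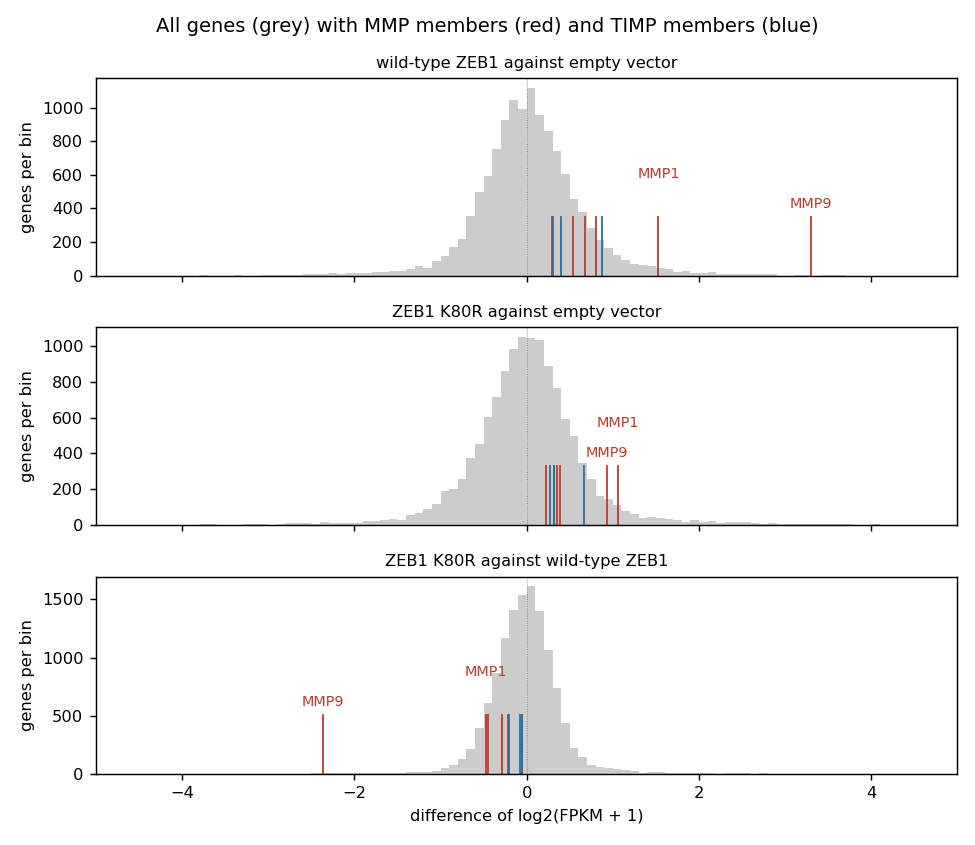
Differences of log2(FPKM + 1) for the 12605 genes with a mean of at least 1 FPKM, as grey histograms with bins of 0.1 (differences beyond 5 in the outermost bins), for the 3 comparisons. Red lines mark the 6 MMP members and blue lines the 3 TIMP members that passed the filter. MMP9 lies in the right tail for wild-type ZEB1 against empty vector, at 3.30, and in the left tail for ZEB1 K80R against wild type, at −2.36, while the TIMP members stay between −0.20 and 0.87.

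Ratios between members within a library do not depend on how libraries are scaled to each other. The summed FPKM of the 7 MMP members was 4.29 times that of the 3 TIMP members in empty vector, 5.29 times in wild-type ZEB1 and 4.12 times in ZEB1 K80R. MMP14 carried most of this. Without MMP14 (an alternative chosen after its share was seen) the ratio was 0.305, 0.506 and 0.337. On both measures wild-type ZEB1 was the highest library. MMP9 to TIMP1 was 0.0457 (0.0359 to 0.0575) in empty vector, 0.346 (0.32 to 0.375) in wild-type ZEB1 and 0.0669 (0.0564 to 0.079) in ZEB1 K80R. Of the 5 pairs of an enzyme with an inhibitor given here this one differed most between libraries. The intervals of ZEB1 K80R and empty vector overlapped only from 0.0564 to 0.0575, which does not show that these ratios are the same.

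The pair of MMP1 and TIMP1 had ratios of 0.119 (0.101 to 0.14), 0.209 (0.189 to 0.231) and 0.17 (0.15 to 0.192), which placed ZEB1 K80R between the other libraries. MMP3 to TIMP1 was 0.0891, 0.0755 and 0.0729, lowest in the ZEB1 libraries, with overlapping intervals. For MMP14 and TIMP2, the activating pair of proMMP2, the ratio was 7.1 (6.92 to 7.28), 9.92 (9.69 to 10.2) and 7.5 (7.32 to 7.7). MMP2 to TIMP2 was 0.358, 0.467 and 0.393. In both pairs wild-type ZEB1 was the highest and ZEB1 K80R was nearer to empty vector. Within the inhibitors TIMP1 to TIMP2 was lowest in empty vector, at 0.591 (0.555 to 0.629), 0.873 (0.829 to 0.919) and 0.784 (0.742 to 0.829).

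**Figure D4:**
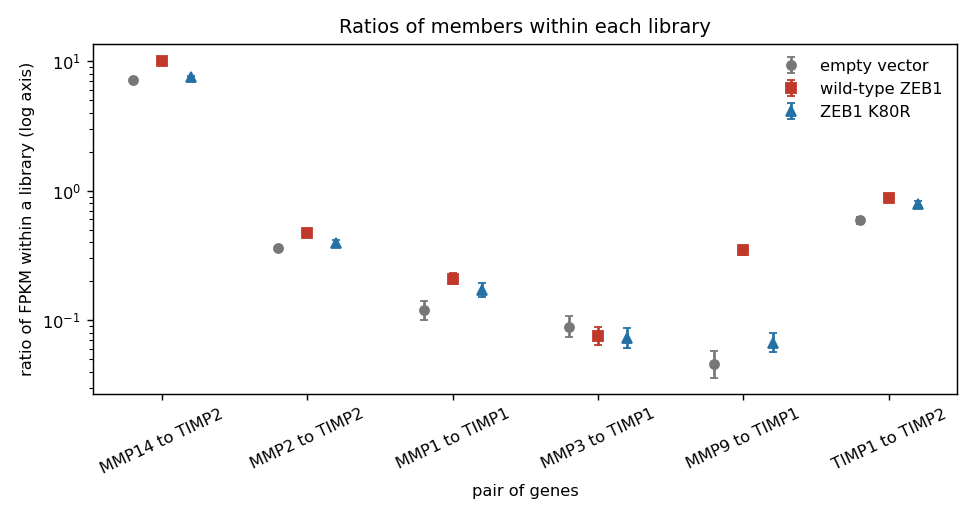
Ratio of FPKM of 2 members within each library, on a log axis, with 95% counting intervals, for 6 pairs in the empty vector (circles), wild-type ZEB1 (squares) and ZEB1 K80R (triangles) libraries. MMP9 to TIMP1 stands at 0.346 in wild-type ZEB1 against 0.0457 and 0.0669 in the others, while MMP14 to TIMP2 runs from 7.1 to 9.92.

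The pattern of MMP9 over the libraries was set beside that of other genes by the distance of the log2 ratios of wild-type ZEB1 and of ZEB1 K80R to empty vector. This used 6535 other protein-coding genes with a mean of at least 5 FPKM, and rests on 3 libraries. The nearest were the chemokine genes CCL2, at a distance of 0.739, CXCL3, at 0.751, and CXCL8, at 0.907, then the NF-κB inhibitor TNFAIP3, at 0.946, and the cytokine IL1A, at 1.25. No gene lay within 0.5 of MMP9, and 886 lay within 0.5 of TIMP1. CCL2 stood at 3.23 FPKM in empty vector, 27.4 in wild-type ZEB1 and 8.54 in ZEB1 K80R, which is the same order as for MMP9. In these libraries CXCL3 stood at 1.13, 13.4 and 1.62 FPKM and TNFAIP3 at 2.41, 31.8 and 2.93. Both, like MMP9, passed the filter of 5 FPKM only through the wild-type ZEB1 library. The filter thus selects, among low genes, those high in that library, and the nearness of these genes is descriptive only. The nearest to TIMP1 were SF3A2, MUS81, NUTF2, NUCB1 and TEX264, at distances of 0.014 to 0.0414.

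Of the other 17 family genes, 16 MMPs and TIMP4, only MMP16 and MMP17 reached a mean of 1 FPKM, and neither passed the 1.5-fold limit in any comparison. MMP17, a membrane-type MMP held by a lipid anchor, stood at 9.4, 11 and 8.44 FPKM in the control, wild-type and K80R libraries, and MMP16, which spans the membrane, at 3.75, 3.29 and 4.85. MMP16 was thus lowest in wild-type ZEB1, where MMP14 was highest. Of the 17, 7 had 0 reads in all libraries, and 5, 10 and 9 had any reads in the 3 libraries. The 5 with reads in wild-type ZEB1 but 0 in empty vector, MMP7, MMP8, MMP13, MMP23B and MMP28, had at most 10 reads in any library.

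Genes that activate or hold MMPs were higher in the ZEB1 libraries in several cases. Of 19 such genes 12 reached a mean of 1 FPKM, of which 6 were higher in wild-type ZEB1 than in empty vector and 0 lower, and 4 were higher in ZEB1 K80R than in empty vector and 0 lower. Over all genes 14.2% were higher and 11.1% lower in the first comparison, and 12.6% and 13% in the second. None of the 12 passed the limit between K80R and wild type, where 4.42% of all genes were higher and 5.18% lower. The list's median difference of log2(FPKM + 1) was 0.64, 0.38 and −0.10 in these comparisons. The plasminogen activator PLAT stood at 40.3, 93.2 and 89.8 FPKM. BSG, an inducer of MMPs on the cell surface, stood at 65.1, 154.5 and 152.3, and CD44, a hyaluronan receptor to which MMP9 and MMP14 bind, at 62.9, 149.2 and 141.3. These 3 stayed above empty vector at a common sum, at ratios of 1.64 to 1.73. Also higher in wild type, and named after their values were seen, were PLAUR, at 53.9, 91.8 and 65.3, and FURIN, the convertase that activates MMP14, at 31.1, 54.2 and 46.5. At a common sum the ratios of wild type and K80R to empty vector were 1.24 and 0.894 for PLAUR and 1.27 and 1.1 for FURIN. The direction of PLAUR in K80R thus changed at that scaling. RECK, a membrane inhibitor of MMPs, stood at 1.23, 1.64 and 1.79 FPKM, within the limit.

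Transcription factors known to act on MMP promoters were lower in ZEB1 K80R than in wild type in 7 of 16 measured cases and higher in 1, beside 5.18% and 4.42% of all genes. Against empty vector, 8 of the 16 were higher in wild-type ZEB1 and 0 lower, beside 14.2% and 11.1%. For ZEB1 K80R against empty vector 2 were higher and 1 lower, beside 12.6% and 13%, so these counts lay near the share over all genes. The list's medians of log2(FPKM + 1) were −0.53 for K80R against wild type, 0.60 for wild type against empty vector and 0.18 for K80R against empty vector. The AP-1 gene FOSL1 stood at 56.9, 193.2 and 103.9 FPKM and JUNB at 18.8, 65.3 and 23.3 in the control, wild-type and K80R libraries. Of the NF-κB subunits, RELB stood at 5.99, 18.5 and 4.16 and NFKB2 at 19.6, 55.0 and 18.2. JUNB, RELB and NFKB2 were thus high in the wild-type ZEB1 library alone, and FOSL1 in ZEB1 K80R lay between the other libraries. On the deposited scale every member with a mean of at least 1 FPKM also lay between them in ZEB1 K80R. That position is therefore not particular to any one of these genes. Other factors past the limit, named after their values were seen, included JUN, NFKB1 and JUND, lower in K80R than in wild type at ratios of 0.637, 0.553 and 0.541, and RELA, ETV4 and JUN, higher in wild type than in empty vector at 2.13, 1.78 and 1.57. ELK1 was also higher there, at 1.73. Others were FOS, the 1 gene higher in K80R than in wild type at 5.08 against 2.98, and, against empty vector, ELK1, higher at 10.3 against 6.43, and JUND, lower at 28.4 against 56.5.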

How the data were processed

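RNA was sequenced from 3 libraries labelled HCT116, 1 per group; groups were taken from the genotype in the labels. The authors deposited FPKM values per gene. Per the submitters' processing notes, hg38, DESeq2 1.20.0, featureCounts 1.5.0-p3 and CASAVA were used, in roles that are not stated; aligner, annotation and strand setting are not given in the sources used here. All 58735 identifiers and coordinates equal those of GENCODE release 29 (GRCh38).

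FPKM times gene length was a whole multiple of 1 step per library for 100.0% of genes above 0 (tolerance 0.05 reads), which gave reads for exact conditional 95% intervals, a method tested on simulated data. Library sums were 14764535 for empty vector, 14322537 for wild type and 13479517 for K80R; 3 reads on a gene of 2 kb are 0.0944, 0.109 and 0.113 FPKM. Differences used log2(FPKM + 1), a pseudocount of 1 that understates low genes. Python 3.11.15, numpy 2.4.6, pandas 2.3.3 and scipy 1.17.1 were used.

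Members and lists were chosen with earlier results of these data known. Named genes were all members, ZEB1, up to 4 genes with the largest difference per list and the 5 genes nearest in pattern to MMP9 and TIMP1. Some genes that this rule gives are not reported here. Alternatives varied pseudocount, filter, fold and scaling.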

Additional observations from a re-analysis of the deposited data

How the results depend on the processing

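With 1 library per group no replicate could be left out and no paired analysis was possible because no group has a replicate number in the labels. The number of members higher in wild-type ZEB1 than in empty vector, 5 of 9, was 2 at a common sum of FPKM and 2 with a limit of 2-fold, and the median difference of log2(FPKM + 1), 0.68, was 0.24 at a common sum, where that over all genes moved from 0.01 to −0.36. For ZEB1 K80R against empty vector the number higher, 3, was 1 with a limit of 2-fold. The median there, 0.35, was −0.04 at a common sum, where that over all genes moved from 0.00 to −0.36. The shares of all genes past the limit under these other settings are not given here. A common sum lowers every ratio to empty vector by one factor, which follows from the larger FPKM sums of the ZEB1 libraries. These sums were 223875, 307544 and 303683 in the control, wild-type and K80R libraries, and 211703, 223285 and 200523 without mitochondrial genes. At a common sum without those genes the numbers higher than in empty vector were 5 and 3, and the medians 0.61 and 0.43. For K80R against wild type the median, −0.22, was −0.09 at a common sum without mitochondrial genes, where that over all genes moved from −0.02 to 0.11. The other counts and medians stayed within 1.5 times or 0.1 of these under a pseudocount of 0.1, no filter, a mean of at least 5 FPKM and scaling by the median ratio. The ratio of summed MMP to TIMP FPKM, at 4.29, 5.29 and 4.12 in the control, wild-type and K80R libraries, was 4.58, 6.06 and 4.66 with reads not scaled by length and 0.305, 0.506 and 0.337 without MMP14. With all family genes it was 4.39 in empty vector. Of the 27 single ratios of members, 18 left their counting interval at a common sum, 9 did so without mitochondrial genes and 0 with the median ratio. The median ratio multiplied the 3 comparisons by 1.01, 1 and 0.991 only. The deposited values were thus already near that scale, and it could hardly move any result here. Depth limits MMP10, with at most 10 reads. Its order between the ZEB1 libraries was not detectable at this depth.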

Other observations

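Other metalloproteinases, the ADAM and ADAMTS genes, were measured in the same libraries. These proteases shed cell surface proteins or process collagens and proteoglycans, and some are blocked by TIMP3. Of 22 genes, 12 reached a mean of 1 FPKM, and 0 of them passed the 1.5-fold limit for wild-type ZEB1 against empty vector, where 14.2% of all genes were higher and 11.1% lower, or for ZEB1 K80R against wild type, where 4.42% and 5.18% were. ADAM10, the main sheddase of Notch and cadherins, was the 1 gene above it for ZEB1 K80R against empty vector (12.6% of all genes), at 12 FPKM in empty vector, 16.5 in wild type and 18.7 in K80R. ADAMTS6 stood at 4.39, 4.74 and 6.33, ADAMTS14 at 1.74, 2.1 and 2.88, and ADAMTS16 at 0.977, 1.42 and 1.78, each highest in ZEB1 K80R. For ADAMTS16 the interval of K80R to wild type, 0.971 to 1.62, includes 1. The list as a whole did not share this order. ADAM8 and ADAMTS2 were highest in wild-type ZEB1, and ADAM9, ADAM15 and ADAMTS13 were highest in empty vector.

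Of 24 matrix genes whose proteins are MMP substrates, 19 reached a mean of 1 FPKM. In wild-type ZEB1 5 were higher than in empty vector and 0 lower, where 14.2% and 11.1% of all genes were, and in ZEB1 K80R 5 were higher and 1 lower, where 12.6% and 13% were. Against wild type, 1 was higher and 2 were lower in ZEB1 K80R, beside 4.42% and 5.18% of all genes. One of the 2 lower genes was the laminin subunit gene LAMB3, which stood at 293.7, 534.4 and 318.4 FPKM in the control, wild-type and K80R libraries. Fibronectin, FN1, at 57.4, 111.5 and 117.4, and the basement membrane linker NID1, at 11.3, 22.2 and 23.9, were not lower in K80R than in wild type. Their ratios of K80R to wild type were 1.05 (1.03 to 1.07) and 1.08 (1.01 to 1.15). COL5A1, named after its value was seen, was the 1 higher gene, at 23.7 against 14.7 FPKM.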
